A study of Mus musculus with 6 samples.

Results

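The genes described here are the 9 that encode activin ligands, follistatin-type proteins and activin receptors. Among them are the ligand subunit genes Inhba and Inhbb, the antagonist genes Fst and Fstl3, and the follistatin-like gene Fstl1. The receptor genes are Acvr1 and Acvr1b (type I) and Acvr2a and Acvr2b (type II). All were taken by symbol, and 9 of 9 were found among the 25793 genes of the count tables. RNA was sequenced from primary mouse embryonic fibroblasts, cultures of mixed connective tissue cells, which were taken from embryos at E13.5 and grown with 10% fetal bovine serum. The study holds 6 libraries, 1 for each genotype: wild type (WT), Sptbn1+/- (1 knockout allele of the gene for beta-II spectrin), Sptbn1-/-, SMAD3+/-, SMAD3-/-, and the double heterozygote Sptbn1+/-; SMAD3+/-. The labels give no strain, no structure of either knockout allele, and no statement of whether a culture came from a single embryo or from several. Since each genotype is a single library, no difference has a replicate check, and every comparison below is between libraries and not between genotypes.

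Activins are secreted dimers of the inhibin beta subunits that Inhba and Inhbb encode. They bind a type II receptor, the product of Acvr2a or Acvr2b, which recruits and activates a type I receptor. Acvr1b encodes the main type I receptor for activin, which phosphorylates SMAD2 and SMAD3, whereas the product of Acvr1 mostly carries bone morphogenetic protein signals. Follistatin, encoded by Fst, and the related protein of Fstl3 bind activin and keep it from its receptors, and Fst is itself a common target of activin signalling. The product of Fstl1 has a follistatin-like domain but is a more distant relative. Activin A, the dimer of the Inhba product, is known in fibroblasts as a factor of wound repair and fibrosis.

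Promoter windows from RefSeq (build GRCm38.p6), running from 250 bases before to 50 bases after the start of the gene, were matched by symbol for 8 of the 9 members, and Fst was not matched. The windows of both ligand genes and of Acvr2a are shown because Inhba and Acvr2a are the 2 well-counted members whose levels fell apart into the same groups of libraries, and Inhbb is the ligand gene that did not follow them. They lie at chr13:16011601-16011900 (plus strand) for Inhba, chr1:119422199-119422498 (minus strand) for Inhbb and chr2:48813859-48814158 (plus strand) for Acvr2a. Capitals mark matches, on either strand, to the letters searched: the SMAD box CAGAC, the AP-1 motif TGANTCA, the CRE motif TGACGTCA, the GC box GGGCGG and the TATA box TATAAA. No match overlaps another in these 3 windows.
Inhba: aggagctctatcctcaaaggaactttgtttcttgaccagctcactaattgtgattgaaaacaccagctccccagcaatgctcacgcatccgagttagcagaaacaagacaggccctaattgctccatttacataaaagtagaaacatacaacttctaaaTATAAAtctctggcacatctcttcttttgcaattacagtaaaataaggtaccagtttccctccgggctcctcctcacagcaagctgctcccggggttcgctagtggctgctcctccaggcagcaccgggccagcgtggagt
Inhbb: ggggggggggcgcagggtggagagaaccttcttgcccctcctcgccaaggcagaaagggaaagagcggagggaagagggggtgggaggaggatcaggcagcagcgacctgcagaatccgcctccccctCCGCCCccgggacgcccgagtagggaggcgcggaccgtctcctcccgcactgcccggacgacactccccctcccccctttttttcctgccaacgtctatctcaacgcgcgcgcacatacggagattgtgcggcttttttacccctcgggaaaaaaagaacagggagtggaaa
Acvr2a: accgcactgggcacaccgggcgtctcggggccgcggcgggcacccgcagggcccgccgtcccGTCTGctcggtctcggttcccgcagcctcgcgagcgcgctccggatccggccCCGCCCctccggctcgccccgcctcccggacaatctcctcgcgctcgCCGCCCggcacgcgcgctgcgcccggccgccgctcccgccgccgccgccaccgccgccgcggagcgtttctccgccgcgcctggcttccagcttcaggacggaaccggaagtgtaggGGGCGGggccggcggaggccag

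The Inhba window has a single match, TATAAA starting 91 bases before the start site, and a GC content of 47.7% with 7 CpG dinucleotides. The Inhbb window has 1 GC box, a GC content of 64.3% and 23 CpG, and the Acvr2a window has 1 SMAD box, 3 GC boxes, a GC content of 80.3% and 54 CpG. Over the 32851 windows of the table the medians were 52.7% GC and 7 CpG. The SMAD box letters were in 3 of the 8 members' windows (Fstl3, Acvr2a and Acvr2b) and in 49.6% of all windows, the GC box in 7 of 8 and 35.7%, and the TATA box in 2 of 8 (Inhba and Fstl3) and 13.6%. The AP-1 and CRE letters were in 0 of 8, against 7.81% and 1.79% of all windows. These matches describe letters only.

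Facts of the whole series that bear on these values are as follows. Counts on genes ran from 6856680 to 31125055 per library. The libraries labelled SMAD3-/- and double heterozygote had 80.1% and 81.2% of their uniquely placed reads on genes, against 40.9 to 43.3% in the other 4, and the 18S ribosomal RNA Rn18s at 349 and 1529 CPM against 64661 to 87249 CPM. The labels do not set these 2 libraries apart in preparation or counting, so preparation, counting settings and genotype cannot be told apart in any comparison that sets one of them against the other 4. Among the targeted genes, Sptbn1 (listed as Spnb2) was at 75.5% and 54.3% of WT in the libraries labelled Sptbn1+/- and Sptbn1-/-. It was at 109.6% in SMAD3+/-, but also at 72.0% in SMAD3-/-, which has no labelled Sptbn1 mutant allele, and at 48.9% in the double heterozygote, below Sptbn1-/-. Smad3 ran against its labels, at 149%, 199% and 381% of WT in the libraries labelled SMAD3+/-, SMAD3-/- and double heterozygote, so genotypes are named as labels throughout, and whether any library carries another's label was not tested. The library labelled SMAD3+/- was the only one with high Xist (2747 CPM) and almost no Ddx3y (0.388 CPM), the pattern of female cells, so sex differs in each comparison with it; Ddx3y was at 118 to 188 CPM in the other 5. All 10 fibroblast markers checked (such as Col1a1, Pdgfra and Thy1) were detected in every library.

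Levels are given in CPM, counts-per-million of the library size after TMM scaling. A range in parentheses after a fold is the exact 95% interval of the count ratio. It covers counting error only, because each genotype has 1 library. Copies made by PCR cannot be told from separate molecules, so even that error may be understated. A gene is called higher or lower between 2 libraries when that whole interval lies beyond 1.5-fold. All 9 members were among the 14810 genes compared, which had at least 1 CPM in at least 1 library, but Acvr2b passed only through the library labelled SMAD3-/-, at 1.07 CPM.

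Per kilobase of exon, which allows genes to be set against each other, the most abundant member in WT was Fstl1, at 519 CPM per kb, followed by Inhba at 75.8, Acvr2a at 29.1, Acvr1 at 14.7, Inhbb at 11.2, Fstl3 at 7.42, Acvr1b at 4.59 and Fst at 2.60. Acvr2b was the lowest at 0.0901 CPM per kb, so Acvr2a supplied nearly all of the type II activin receptor transcript in these fibroblasts. In the library labelled SMAD3-/- this per-length order was different, with Fst next after Fstl1 at 33.2 CPM per kb, then Fstl3 at 10.2 and Inhba at 8.35. In the library labelled double heterozygote Acvr1b came next after Fstl1 at 25.2 CPM per kb and Inhba was at 5.72. The plot of member levels shows all 9 genes in all 6 libraries.

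**Figure D1:**
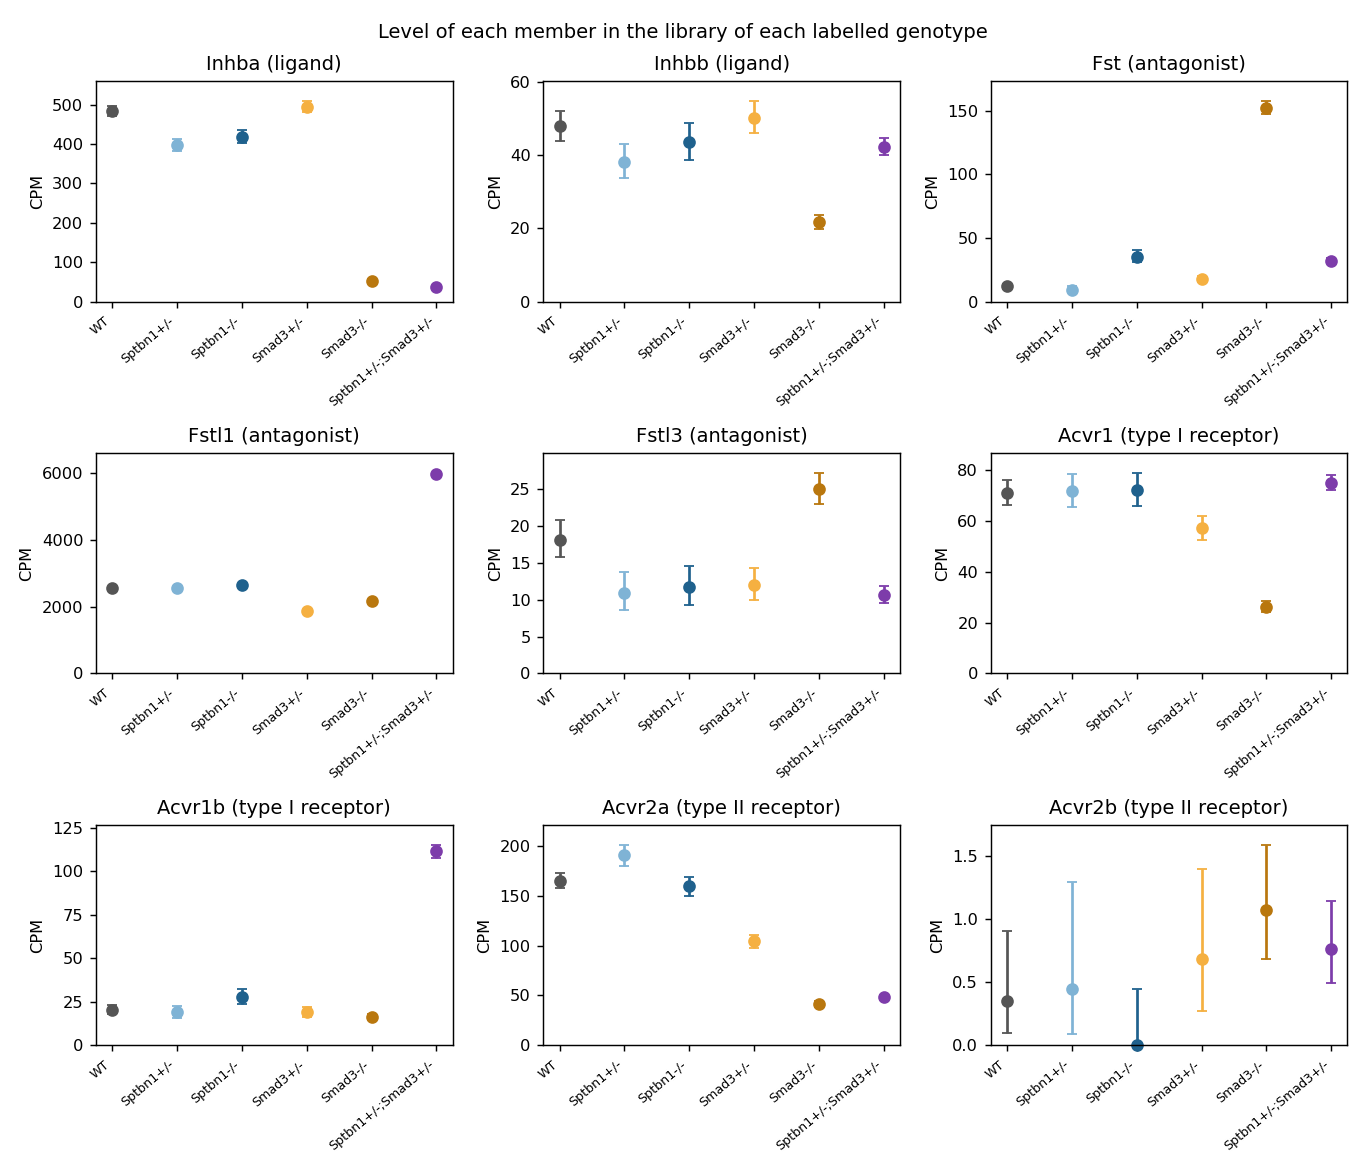
Level of each member (vertical axes, CPM from 0) in the 6 libraries, named by their labels. Points are single libraries and bars are exact 95% Poisson intervals for counting error, except that the Acvr2b bar at 0 counts ends at the limit of 3 counts; Inhba stands at 398 to 495 CPM in 4 libraries and at 53.3 and 36.5 CPM in the libraries labelled SMAD3-/- and double heterozygote.

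Inhba, which encodes the subunit of activin A, had 5478 counts in WT and was at 485 CPM there, at 398 in the library labelled Sptbn1+/-, 419 in Sptbn1-/- and 495 in SMAD3+/-. The library labelled SMAD3-/- had 53.3 CPM and the double heterozygote 36.5, far below the other 4, which spanned 1.24-fold. Against WT, Inhba was 9.08-fold (8.53 to 9.68) lower in the library labelled SMAD3-/- and 13.3-fold (12.4 to 14.2) lower in the double heterozygote. Neighbours in the order of levels that did not differ beyond counting error were SMAD3+/- and WT, and Sptbn1-/- and Sptbn1+/-. Between the 2 low libraries the ratio was 1.46 (1.35 to 1.58), which includes values under 1.5 and was not called.

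Inhbb, which encodes the subunit of activin B, did not separate the same libraries. It was at 47.9 CPM in WT, 38.1 in the library labelled Sptbn1+/-, 43.5 in Sptbn1-/-, 50.2 in SMAD3+/- and 42.3 in the double heterozygote. When these 5 were ranked by level, each overlapped its neighbour within counting error. Libraries farther apart in that rank could differ, as with the ratio of Sptbn1+/- to WT, 0.797 (0.684 to 0.926), which was not called. Only the library labelled SMAD3-/- stood below them, at 21.6 CPM, or 2.21-fold (1.95 to 2.51) lower than WT. The mix of ligand transcripts therefore differed. Within each library, which makes the value independent of scaling, Inhba made up 91.0% (exact Clopper-Pearson 95% interval 90.3 to 91.7) of the summed Inhba and Inhbb counts in WT and 90.6 to 91.3% in the libraries labelled Sptbn1+/-, Sptbn1-/- and SMAD3+/-. It made up 71.1% (68.9 to 73.3) in the library labelled SMAD3-/- and 46.3% (44.4 to 48.3) in the double heterozygote.

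Fst, the gene for follistatin, had the widest range of the members with counts in every library, 16.2-fold. Its level was 11.9 CPM (135 counts) in WT, 9.42 (64 counts) in the library labelled Sptbn1+/-, 35.4 in Sptbn1-/-, 17.7 in SMAD3+/-, 152 (3430 counts) in SMAD3-/- and 31.9 in the double heterozygote. The library labelled SMAD3-/- stood 4.30-fold (3.77 to 4.93) above the next, whereas Sptbn1-/- and the double heterozygote did not differ beyond counting error, nor did WT and Sptbn1+/-. Against WT, Fst was 12.8-fold (10.7 to 15.3) higher in the library labelled SMAD3-/-, 2.97-fold (2.39 to 3.69) higher in Sptbn1-/- and 2.67-fold (2.23 to 3.23) higher in the double heterozygote, and its 1.48-fold (1.18 to 1.87) ratio in SMAD3+/- was not called. Fst was also 3.76-fold (2.84 to 5.03) higher in the library labelled Sptbn1-/- than in Sptbn1+/-, a pair with similar shares of reads on genes. Between that pair 3 of 5 mesothelium and gonad markers (summed level 38.9 against 13.55 CPM), 3 of 11 macrophage and leukocyte markers and 1 of 4 skeletal muscle markers were higher and 0 lower, and of 10 fibroblast markers 0 were called. Against WT, 0 of 5 mesothelium and gonad markers were called in Sptbn1-/-, while 2 of 11 macrophage and leukocyte markers were lower and 0 higher. The part of these cells in the Fst difference was not tested.

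In GENCODE M21 (build GRCm38), Fst lies at chr13:114452290-114458951 on the minus strand and Inhba at chr13:16011851-16031621 on the plus strand, both protein-coding. Exons of Fst overlap those of Gm47040 on the opposite strand over 115 bases.

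The balance of ligand and antagonist transcripts followed from these values. There were 40.6 Inhba reads for each Fst read in WT, 42.2 in the library labelled Sptbn1+/-, 27.9 in SMAD3+/- and 11.8 in Sptbn1-/-. The library labelled double heterozygote had 1.14 and SMAD3-/- 0.350, so that in the latter Fst reads outnumbered Inhba reads. These are reads, and Inhba has more exon sequence than Fst (6390 against 4589 bases). Per kilobase of exon, Inhba made up 96.7% of the pair in WT, 45.1% in the double heterozygote and 20.1% in SMAD3-/-. By that measure Fst was above Inhba in both of the latter libraries. As a share of the summed counts, Inhba was at 97.6% (97.2 to 98.0) in WT, 92.2% (91.2 to 93.1) in Sptbn1-/-, 53.3% (51.2 to 55.5) in the double heterozygote and 25.9% (24.7 to 27.2) in SMAD3-/-. The plot of shares shows this pair beside 3 others.

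**Figure D2:**
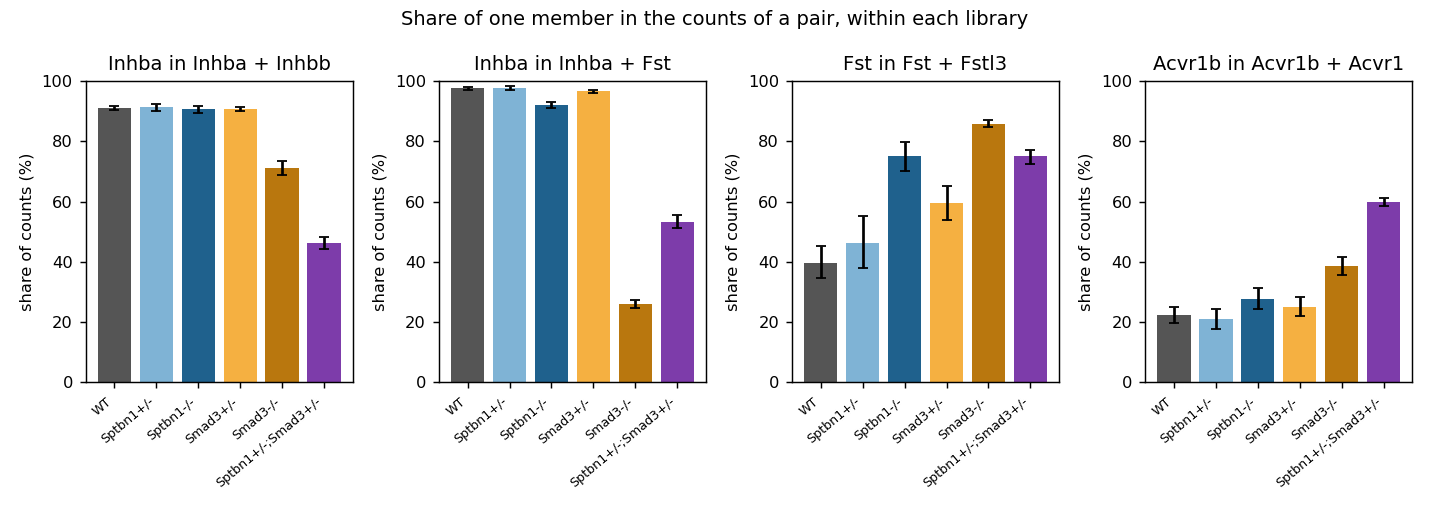
Share of the first gene in the summed counts of a pair (vertical axes, percent from 0 to 100) in each of the 6 libraries, named by their labels. Bars are single libraries with exact Clopper-Pearson 95% intervals for counting error; the Inhba share of Inhba plus Fst is 97.6% in WT and 25.9% in the library labelled SMAD3-/-.

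Fstl3, the second activin-binding antagonist, was at 18.1 CPM in WT, 10.9 in the library labelled Sptbn1+/-, 11.7 in Sptbn1-/-, 12.0 in SMAD3+/-, 25.0 in SMAD3-/- and 10.7 in the double heterozygote. No ratio to WT was called, though all excluded 1. The ratio in the library labelled SMAD3-/- was 1.38 (1.17 to 1.63) and that in the double heterozygote 0.588 (0.493 to 0.703). It was 0.601 (0.454 to 0.787) in Sptbn1+/-, 0.643 (0.489 to 0.838) in Sptbn1-/- and 0.663 (0.526 to 0.832) in SMAD3+/-. Among the 4 lowest libraries, neighbours in the order of levels did not differ beyond counting error. Fst made up 39.7% (34.5 to 45.1) of the Fst and Fstl3 counts in WT, 46.4% in the library labelled Sptbn1+/-, 59.6% in SMAD3+/-, 75.2% in Sptbn1-/-, 75.0% in the double heterozygote and 85.9% (84.8 to 87.0) in SMAD3-/-. Per kilobase of exon this Fst share was lower, at 26.0% in WT, 44.0% in SMAD3+/- and 76.4% in SMAD3-/-. Exons of Fstl3 overlap those of Prss57 on the opposite strand over 1157 bases in GENCODE M21, and the sources used here do not give the strand setting of the counting. Prss57 (listed as Prssl1) was at 0.294 CPM or less in every library.

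Fstl1, a secreted glycoprotein made in bulk by fibroblasts, was the most counted member, with 17403 to 188115 counts. It was at 2552 CPM in WT, 2563 in the library labelled Sptbn1+/-, 2651 in Sptbn1-/-, 1863 in SMAD3+/-, 2169.6 in SMAD3-/- and 5991 in the double heterozygote. The library labelled double heterozygote alone stood apart, 2.35-fold (2.32 to 2.38) above WT and 2.76-fold (2.73 to 2.79) above SMAD3-/-. Fibroblast markers were also higher in that library, with 5 of 10 called higher and 1 lower against WT and a summed level of 56878 CPM, against 18480 in SMAD3-/- and 27137 to 35644 in the other 4. The part of the cells' make-up in the Fstl1 difference was not tested, and in such bulk samples fewer cells of a type and less RNA per cell cannot be told apart.

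Acvr1b, the gene for the activin type I receptor ALK4, was at 20.3 CPM in WT, 19.0 in the libraries labelled Sptbn1+/- and SMAD3+/-, 27.8 in Sptbn1-/-, 16.4 in SMAD3-/- and 111 (3498 counts) in the double heterozygote. The double heterozygote was 5.50-fold (4.81 to 6.31) above WT and 4.01-fold (3.46 to 4.67) above the next highest library, and the 4 lowest libraries each overlapped their neighbour within counting error. Acvr1, the gene for ALK2, ran differently: it was at 70.9 CPM in WT, 71.7 in the library labelled Sptbn1+/-, 72.2 in Sptbn1-/-, 57.1 in SMAD3+/-, 75.0 in the double heterozygote and 26.1 in SMAD3-/-. It was 2.72-fold (2.44 to 3.03) lower than WT in the library labelled SMAD3-/-, and the 4 highest libraries did not differ beyond counting error. In the same annotation Acvr1b lies at chr15:101174067-101213684 on the plus strand and Acvr2a at chr2:48814109-48903269 on the plus strand. Acvr1b made up 22.2% (19.7 to 24.9) of the counts of both type I receptors in WT, 38.6% (35.5 to 41.7) in the library labelled SMAD3-/- and 59.8% (58.5 to 61.0) in the double heterozygote.

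Acvr2a, the gene for the main type II receptor here, was at 165 CPM in WT, 191 in the library labelled Sptbn1+/-, 159 in Sptbn1-/-, 104 in SMAD3+/-, 41.4 in SMAD3-/- and 48.1 in the double heterozygote. Like Inhba it was lowest in the latter 2 libraries, with no overlap with the other 4. Against WT it was 3.99-fold (3.68 to 4.32) lower in the library labelled SMAD3-/- and 3.43-fold (3.21 to 3.68) lower in the double heterozygote, and its 1.59-fold (1.47 to 1.71) lower level in SMAD3+/- was not called. WT and Sptbn1-/- did not differ beyond counting error. Exons of Acvr2a overlap those of Orc4 on the opposite strand over 446 bases. Orc4 (listed as Orc4l) was at 37.0 to 41.4 CPM in 5 libraries and at 80.0 in SMAD3-/-, and reads that fit several genes made up 0.0251% of all records in that library, 0.827% in the double heterozygote and 0.363 to 0.413% in the other 4; their part in the Acvr2a values was not tested.

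Acvr2b, the gene for the other type II receptor, was barely detected, with 4 counts in WT, 3 in the library labelled Sptbn1+/-, 0 in Sptbn1-/-, 7 in SMAD3+/- and 24 in both SMAD3-/- and the double heterozygote. At a limit of 3 counts, the 0 counts allow a level of up to 0.448 CPM, which is above the 0.354 CPM of WT, so a difference between these libraries was not detectable at this depth. The ratio of the library labelled SMAD3-/- to WT was 3.01 (1.04 to 11.9), and no ratio was called. Acvr2a made up 97.5% or more of the counts of both type II receptors in each library.

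Against WT, the members called were few in the Sptbn1 libraries and many in the 2 libraries with the higher share of reads on genes. In the library labelled Sptbn1+/-, 0 of 9 members were higher and 0 lower, where 0.635% of all genes compared were higher and 1.2% lower. In Sptbn1-/-, 1 of 9 was higher (Fst) and 0 lower, with 0.648% and 0.412% of all genes. In SMAD3+/-, 0 were higher and 0 lower, with 1.64% and 4.46% of all genes. In SMAD3-/-, 1 was higher (Fst) and 4 were lower (Inhba, Inhbb, Acvr1 and Acvr2a), with 24.2% and 25.2% of all genes. In the double heterozygote, 3 were higher (Fst, Fstl1 and Acvr1b) and 2 lower (Inhba and Acvr2a), with 21.6% and 19.1% of all genes. In the last 2 comparisons calls were common over all genes, so these counts do not mark the members as particular. The 5 comparisons share the WT library.

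**Figure D3:**
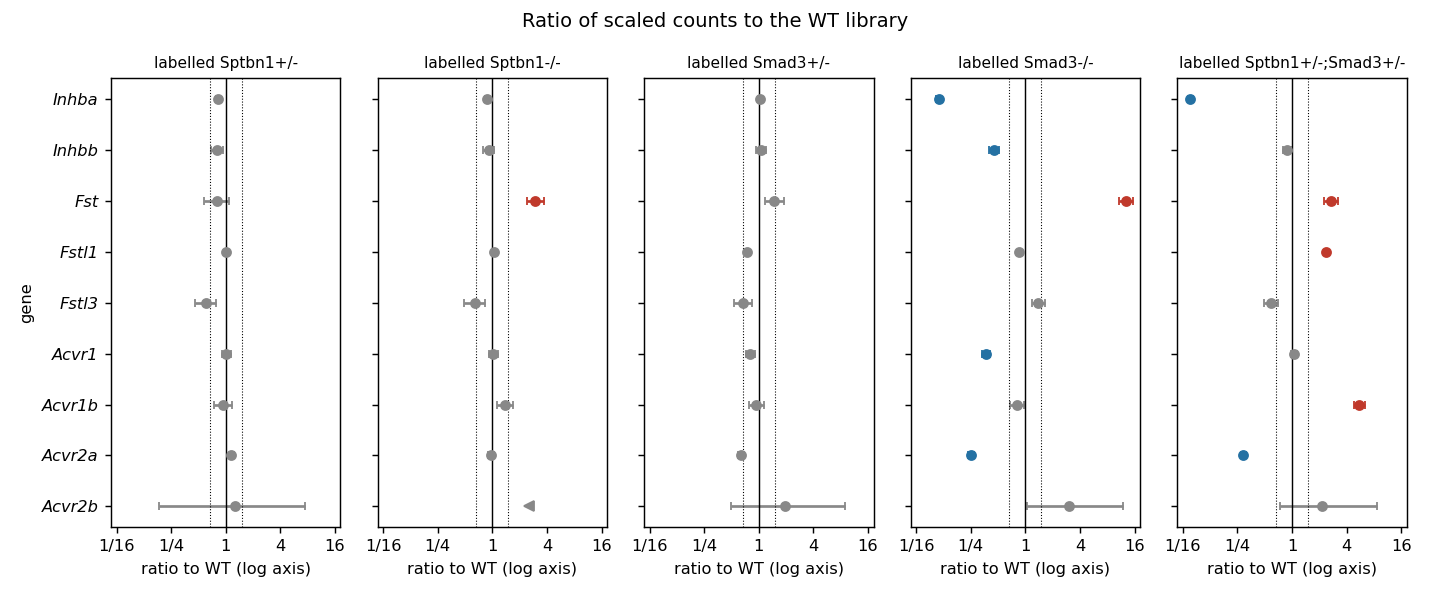
Ratio of scaled counts of each member to the WT library (horizontal axes, log scale) for the 5 other libraries, named by their labels. Points are ratios with exact 95% counting intervals, red is called higher, blue is called lower, grey is not called, the dotted lines mark 1.5-fold and the arrowhead is the upper bound where the count was 0; Fst is the only member called in the library labelled Sptbn1-/-, at 2.97-fold.

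The median log2 ratio of the 9 members to WT was -0.09 in the library labelled Sptbn1+/-, -0.05 in Sptbn1-/- (0.02 with the Acvr2b count of 0 set to the floor of 3 counts), -0.09 in SMAD3+/-, -0.31 in SMAD3-/- and 0.08 in the double heterozygote. Over all genes compared the medians were -0.01, 0.00, 0.01, 0.05 and 0.06.

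Other pairs of libraries gave the following. Between Sptbn1-/- and Sptbn1+/-, 1 of 9 members was higher (Fst) and 0 lower, against 0.925% and 0.378% of all genes. Between SMAD3-/- and SMAD3+/-, 2 were higher, Fst 8.59-fold (7.40 to 10.0) and Fstl3 2.08-fold (1.71 to 2.55), and 4 lower, Inhba 9.28-fold (8.72 to 9.89), Inhbb 2.32-fold, Acvr1 2.19-fold and Acvr2a 2.51-fold, against 22.6% and 22.3% of all genes. Between the library labelled double heterozygote and the libraries of its single heterozygotes, 3 members were higher and 2 lower against Sptbn1+/- (21.1% and 18.3% of all genes) and 3 higher and 2 lower against SMAD3+/- (22.5% and 19.0% of all genes). These comparisons share the double heterozygote. Higher were Acvr1b, 5.87-fold in each, Fst, 3.39-fold and 1.80-fold, and Fstl1, 2.34-fold and 3.22-fold. Lower were Inhba, 10.9-fold and 13.6-fold, and Acvr2a, 3.96-fold and 2.16-fold.

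The libraries labelled SMAD3-/- and double heterozygote can be set against each other within the higher share of reads on genes. There, 2 of 9 members were higher in SMAD3-/- and 4 lower, against 19.8% and 23.4% of all genes. The antagonist genes Fst and Fstl3 were 4.77-fold (4.44 to 5.12) and 2.34-fold (2.04 to 2.69) higher in SMAD3-/-. Acvr1b was 6.80-fold (6.10 to 7.59) lower, Acvr1 2.87-fold (2.62 to 3.15), Fstl1 2.76-fold and Inhbb 1.96-fold (1.76 to 2.17) lower. Inhba and Acvr2a, the members that were low in both, had ratios of 1.46 and 0.861 (0.793 to 0.935) and were not called. The pair was not alike in other respects. Reads that fit several genes made up 0.0251% of records in SMAD3-/- and 0.827% in the double heterozygote. In SMAD3-/-, 9 of 10 fibroblast markers were lower and 1 higher. There, 11 of 11 macrophage and leukocyte markers were lower, and 4 of 4 skeletal muscle markers were higher. The part of these differences in the member ratios was not tested.

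The double heterozygote was also compared with the level that the 2 single heterozygotes would give if their log2 differences from WT added up. Of the 9 members, 3 lay above that level and 2 below, against 18.5% and 16.5% of all genes. Acvr1b departed by a log2 value of 2.64 (2.27 to 3.01), Fstl1 by 1.68 (1.64 to 1.71) and Fst by 1.18 (0.70 to 1.67). Inhba departed by -3.48 (-3.59 to -3.36) and Acvr2a by -1.32 (-1.47 to -1.17). The ranges cover counting error only, and the double heterozygote is the 1 library of these 4 with the higher share of reads on genes.

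A fit over all 6 libraries to the number of labelled mutant alleles gave the only test across libraries, with 3 residual degrees of freedom and an equal effect of each allele assumed. By edgeR's quasi-likelihood test with Benjamini-Hochberg adjustment, 0.0% of 14085 genes passed an adjusted p of 0.05 per Sptbn1 allele and 0.0% per Smad3 allele, so 0 of the 8 members tested passed either (Acvr2b was below the filter of 1 CPM in 2 libraries). At an unadjusted p under 0.05 there were 21 of 14085 genes per Sptbn1 allele, with 0 of 8 members. Per Smad3 allele there were 3404 of 14085 genes, with 2 of 8 members. The latter lies near the share over all genes, so it does not mark these 2 members as particular. Those 2 were Fst, at a log2 change of 1.84 (SE 0.39) per labelled Smad3 allele, and Acvr2a, at -1.18 (SE 0.25), each with an edgeR adjusted p of 0.160. Without the library labelled SMAD3-/- the change of Fst was 0.90 (SE 0.45), with an edgeR adjusted p of 0.575, and that of Acvr2a was -1.35 (SE 0.41). Inhba was at -1.87 (SE 0.77) per labelled Smad3 allele, with an edgeR adjusted p of 0.212, and between -2.77 and -1.39 over the fits that left out each library in turn. Per Sptbn1 allele the change of Fst was 0.79 (SE 0.38), with an edgeR adjusted p of 1.00. It was 1.69 without the WT library and -0.07 without Sptbn1-/-, and -0.55 in a fit without the Smad3 term. DESeq2 called 0 genes per Sptbn1 allele and 2049 of 14085 per Smad3 allele. Among the latter were 3 of 8 members: Inhba, Fst and Acvr2a, with DESeq2 adjusted p-values of 0.0160, 0.00270 and 0.00166. In a fit to the other 4 libraries, without SMAD3-/- and the double heterozygote, where the Smad3 term rests on the library labelled SMAD3+/- alone, the change of Inhba was 0.09 (SE 0.13), that of Fst 0.86 (SE 0.69) and that of Acvr2a -0.74 (SE 0.15), and 0 of 8 members passed (edgeR adjusted p 0.0547 for Acvr2a).

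Other genes of the pathway were taken from a list of 41 ligands, receptors, co-receptors, binding proteins, proteases, SMAD partners and feedback genes, of which 27 were compared. In the libraries labelled Sptbn1+/- and Sptbn1-/-, 0 of 27 were higher and 0 lower than WT. In SMAD3+/-, 0 were higher and 2 lower: Pcsk5, a protease that processes ligand precursors, 3.36-fold (101 to 30.1 CPM), and Acvrl1, the type I receptor gene ALK1, 2.86-fold (16.4 to 5.72 CPM). In SMAD3-/-, 8 were higher and 6 lower, where 24.2% and 25.2% of all genes were, and in the double heterozygote 8 were higher and 6 lower, where 21.6% and 19.1% of all genes were. These counts lie near the shares over all genes. The medians of the list in these 5 comparisons ran from -0.09 to 0.23 on the log2 scale.

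In the library labelled SMAD3-/- the highest called pathway ratios to WT were those of Fstl4, a follistatin-like gene with 1 count in WT that was compared only because it reached 1 CPM in this library (1.33 CPM; 15.1-fold, 2.50 to 615), Zfyve9, which encodes the SMAD anchor SARA (4.30-fold, 3.15 to 5.99), and Bambi, a decoy receptor gene (3.70-fold, 2.88 to 4.82). The lowest called were Pcsk5 (25.1-fold lower), Fkbp1a, whose product holds type I receptors inactive (5.04-fold lower), and Pmepa1, a feedback target of SMAD signalling (4.45-fold lower, 586 to 132 CPM). In the double heterozygote the highest called were Wfikkn2, a gene for a binder of related ligands (7.92-fold, 2.99 to 29.7, with 4 counts in WT and 1 CPM reached only in this library and SMAD3-/-), Acvrl1 (4.19-fold, 3.61 to 4.90) and Smad3 (3.81-fold). The lowest called were Pmepa1 (3.72-fold lower, at 157 CPM), Pcsk5 (2.36-fold lower) and Fkbp1a (2.21-fold lower). Inha, whose product turns the beta subunits into inhibin, was at 6.81 CPM in WT and 2.58 in SMAD3-/-, a 2.64-fold lower level.

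**Figure D4:**
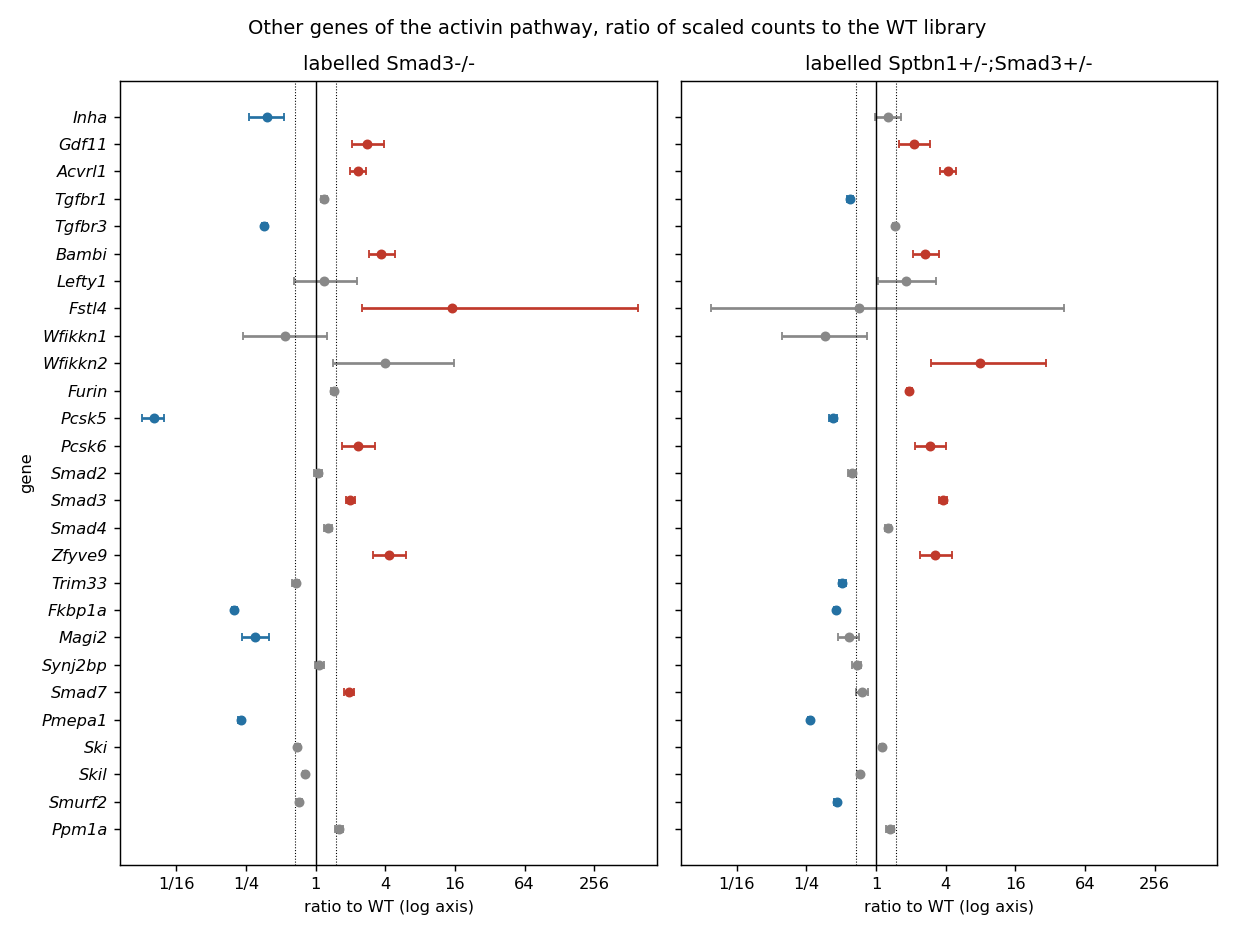
Ratio to the WT library (horizontal axes, log scale) of the 27 other pathway genes compared, in the libraries labelled SMAD3-/- and double heterozygote. Points are ratios with exact 95% counting intervals, red is called higher, blue is called lower, grey is not called and the dotted lines mark 1.5-fold; Pmepa1 is 4.45-fold lower in the first panel and 3.72-fold lower in the second.

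Markers of the other cell types that such cultures can hold also differed between libraries. The 11 macrophage and leukocyte markers summed to 2245 CPM in WT, 1446 to 2169 in the libraries labelled Sptbn1+/-, Sptbn1-/- and SMAD3+/-, 1586 in the double heterozygote and 58.7 in SMAD3-/-, where 11 of 11 were lower and 0 stood at 0 counts. Of these markers 4 of 11 were lower than WT in Sptbn1+/-, 2 in Sptbn1-/- and 1 in SMAD3+/-. In the double heterozygote, which was also low in Inhba, 1 of 11 was higher and 5 were lower. Of the fibroblast markers, 1 of 10 was higher and 8 were lower in SMAD3-/-, and 0 higher and 2 lower in SMAD3+/-. In SMAD3-/-, 3 of 7 epithelial markers were higher (summed level 69.1 against 11.2 CPM in WT, with Krt5 and Krt14 at 0 counts), 3 of 4 skeletal muscle markers were higher (106 against 64.0 CPM, with 0 at 0 counts), and 2 of 5 neural and glial markers were higher and 2 lower (473 against 183 CPM). The median log2 ratios of these 3 lists to WT were -1.32, 4.93 and -1.60. Summed levels cover all markers listed, compared or not. In SMAD3+/- 3 of 7 epithelial markers were higher (28.5 CPM). In the double heterozygote 3 of 7 epithelial and 4 of 5 neural and glial markers were lower (6.34 and 80.6 CPM). Of mesothelium and gonad markers 2 of 5 were higher and 0 lower in the double heterozygote (49.5 against 32.3 CPM), though the median log2 ratio of the 5 was -0.68. In Sptbn1+/- 2 of 5 were lower. Endothelial markers summed to 14.7 CPM in WT and 7.11 to 14.3 CPM elsewhere. Of these, 2 of 4 were lower in SMAD3-/-, and 1 was higher and 1 lower in the double heterozygote. In SMAD3+/- 2 of 5 neural and glial markers were lower. Of mesothelium and gonad markers 1 was higher and 1 lower in each of SMAD3+/- and SMAD3-/-. Of 4 skeletal muscle markers 1 was lower in Sptbn1+/- (21.1 against 64.0 CPM), and 1 was higher and 1 lower in the double heterozygote. The part of these cells in the members' differences was not tested.

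Genes with the most alike pattern were sought for the 3 members with the widest range, by the root mean square difference of log2 levels over the 6 libraries after centring each gene, among 11213 genes with at least 1 CPM in all libraries and 5 CPM in 1. For Inhba they were Naca (0.232), Nav2 (0.316) and Zfhx3 (0.343); Naca, at 57.6 CPM in WT and 6.40 and 6.85 in the libraries labelled SMAD3-/- and double heterozygote, has near-identical copies among which reads can be split. For Fst they were Cox8a (0.482), Shmt1 (0.491) and Mcrs1 (0.514), with Shmt1, a folate enzyme gene, at 3.18 CPM in WT and 33.8 in SMAD3-/-. For Acvr1b they were Vcam1 (0.154), an adhesion receptor gene at 145 CPM in WT and 646 in the double heterozygote, Tmem176b (0.169) and Tapbpl (0.176). With 6 points, 2 of them from libraries of another make-up, such likeness is a description.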

How the data were processed

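RNA from 1 mouse embryonic fibroblast library for each of 6 labelled genotypes was sequenced from 1 ug of total RNA with an Illumina TruSeq kit, per the labels' protocols. The authors deposited raw read counts per gene symbol. FastQC, Trimmomatic, TopHat2 2.0.10, HTSeq, DESeq2 and the build mm9 are named in the submitters' processing notes; the sources used here do not give their roles, the annotation or the strand setting. Each table held 25793 genes and 5 summary lines; the latter were left out of library sizes (reads on no gene, 11.9 to 32.6% of records; reads placed at several sites, 32.5 to 47.1%; reads that fit several genes, 0.0251 to 0.827%).

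TMM scaling of the library sizes used edgeR 4.0.16 (R 4.3.3, limma 3.58.1). Count ratios of 10 pairs of libraries, with exact intervals from scipy 1.17.1, were computed across all genes that reached 1 CPM in any library. The departure of the double heterozygote used log2 levels after adding 0.5 counts. The allele-dose fit was edgeR's robust quasi-likelihood test over genes that reached 1 CPM in 2 or more libraries, with Benjamini-Hochberg adjustment over all of them. The pair ratios and the departure were tried on simulated counts with counting error only, so that trial did not cover differences between cultures. The allele-dose fit was tried on counts simulated with the estimated dispersions. Alternatives were DESeq2 1.42.0 size factors and Wald test, total counts, TMM without structural and histone RNAs, other filters, a 2-fold threshold, widened intervals, and fits that left out each library in turn; scaling over 4 libraries alone was chosen after seeing the data.

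Exon lengths, gene overlaps and positions are from GENCODE M21 (GRCm38), which is not the build the submitters name, so they serve only for lengths, neighbours and the location of genes. Named genes are the 9 members; of the pathway list, the 3 highest and 3 lowest ratios called per comparison with WT; and the 3 most alike genes of the 3 widest-ranging members. Inha was added after its values were seen. The members and lists were chosen with earlier results of these data known.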

Additional observations from a re-analysis of the deposited data

How the results depend on the processing

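Counting intervals were also widened by the common dispersion around the allele-dose fit over all 6 libraries (square root 0.467). With 1 library per genotype, that value also takes in departures from an equal effect of each allele and differences in library make-up. It therefore does not measure the spread between cultures. The widening lowered the number of members called. Against WT, the count went from 1 to 0 in the library labelled Sptbn1-/-, from 5 to 2 in SMAD3-/- (Inhba and Fst kept their calls) and from 5 to 1 in the double heterozygote (Inhba kept its call). Between Sptbn1-/- and Sptbn1+/- it went from 1 to 0, between SMAD3-/- and SMAD3+/- from 6 to 2, between the double heterozygote and Sptbn1+/- from 5 to 2, between the double heterozygote and SMAD3+/- from 5 to 2, and between SMAD3-/- and the double heterozygote from 6 to 1. The within-library shares whose interval did not overlap that of WT went from 14 of 25 to 2 in the same way. By construction wider intervals give fewer calls. The share of all genes called with them is not given here, so the calls kept do not mark any member as particular. A narrower widening used the dispersion around an allele-dose fit to WT, Sptbn1+/-, Sptbn1-/- and SMAD3+/- (square root 0.113). That fit left 1 residual degree of freedom and fitted SMAD3+/- exactly, so its value does not measure a spread among all 4 libraries. Other settings were DESeq2 size factors, total counts, the removal of structural and histone RNAs, no filter, a filter of 5 CPM and a 2-fold threshold. Under each of these, counts of members stayed within 1.5 times their reported values. So did the 5 departures of the double heterozygote under the alternatives run for them. The count between SMAD3-/- and SMAD3+/- went from 6 to 4 at 2-fold. The narrower widening took the calls of Fst (double heterozygote against SMAD3+/-), Inhbb (SMAD3-/- against double heterozygote) and Fstl3 (SMAD3-/- against SMAD3+/-). TMM scaling and filtering over the 4 libraries WT, Sptbn1+/-, Sptbn1-/- and SMAD3+/- alone, chosen after seeing the data, left the counts of 0, 1, 0 and 1 for the 4 pairs among them. Of 264 log2 ratios of single members under another scaling, 246 stayed within their counting interval, 18 left it and 0 of those called changed sign. In the allele-dose fit per Smad3 allele, the members that passed went from 0 to 3 with DESeq2 and to 1 without the Sptbn1 term; the cause was not tested. Over all genes, the number passing per Smad3 allele went from 0 to 2049, 676 and, in the fit to those 4 libraries, 372, and per Sptbn1 allele from 0 to 0, 0 and 1. Leaving out each library in turn gave 0 to 0 members for Sptbn1 and 0 to 0 for Smad3, while the log2 change of Fst ranged from -0.07 to 1.69 per Sptbn1 allele and from 0.90 to 2.72 per Smad3 allele. No paired analysis was possible because each genotype has 1 library and the labels carry no replicate numbers. Depth limits Acvr2b, with 0 to 24 counts per library.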
